A study of Homo sapiens with 2 samples.

Results

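In H1299 cells with and without p53, 10 genes of the TGF-beta family were followed: the ligand genes TGFB1, TGFB2, TGFB3, INHBA, GDF9 and GDF11, the receptor genes TGFBR1, TGFBR2 and TGFBR3, and LTBP1, which encodes a latent TGF-beta binding protein. The 10 genes were picked by name because GDF9 differed strongly between the arrays, and they are 10 of the 18417 genes with a probe set of their own. Each was read by 1 probe set, the group of oligonucleotides that measures a transcript, and none of these probe sets was assigned to a further gene. H1299 is an established line from a human non-small cell lung cancer and has no p53 of its own; p53 is a transcription factor activated by DNA damage. The first group was H1299 cells given p53 and the second was H1299 cells of a negative control. The labels do not say how p53 was supplied, for how long, or what the control cells received. RNA of each group was read on 1 Affymetrix array, so there are 2 arrays, no replicates and no test. All values are log2 intensities, and a difference is the value in the p53 array minus the value in the control array. A log2 difference of 1 is 2-fold. A gene was called when the arrays were at least 2-fold apart, which is a rule of size.

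TGF-beta family ligands are made as precursors that are cut to a dimeric mature ligand. They bind a type II receptor kinase, which activates a type I receptor kinase, which in turn phosphorylates SMAD transcription factors. TGF-beta itself uses TGFBR2 as type II and TGFBR1, also called ALK5, as type I receptor, signals through SMAD2 and SMAD3, and halts the cycle of many epithelial cells. GDF9 is best known as a ligand that the oocyte secretes to its granulosa cells. It binds the type II receptor BMPR2 and also uses TGFBR1.

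The start region of GDF9 is shown because this gene had the largest difference of the 10, and that of TGFBR1 because it holds one of the p53 motifs found. Sequences are RefSeq windows of the GRCh38.p14 build, from 250 bases before a transcript start to 50 bases after it, written along the gene's own strand. The first, chr5:132866602-132866901 on the minus strand, belongs to the most upstream of 4 GDF9 starts, and its capitals mark CAGAC, the SMAD box, searched on both strands as CAGAC and GTCTG. The second, chr9:99103802-99104101 on the plus strand, belongs to 1 of 8 TGFBR1 starts, and its capitals mark the p53 half-site, the 10-base consensus to which a pair of p53 subunits binds.
GDF9: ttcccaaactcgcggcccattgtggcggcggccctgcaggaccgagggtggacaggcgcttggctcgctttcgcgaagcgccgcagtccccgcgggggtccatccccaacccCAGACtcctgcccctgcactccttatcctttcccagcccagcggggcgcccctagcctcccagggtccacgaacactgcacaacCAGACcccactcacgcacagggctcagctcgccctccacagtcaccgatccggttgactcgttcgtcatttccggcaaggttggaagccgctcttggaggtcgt
TGFBR1: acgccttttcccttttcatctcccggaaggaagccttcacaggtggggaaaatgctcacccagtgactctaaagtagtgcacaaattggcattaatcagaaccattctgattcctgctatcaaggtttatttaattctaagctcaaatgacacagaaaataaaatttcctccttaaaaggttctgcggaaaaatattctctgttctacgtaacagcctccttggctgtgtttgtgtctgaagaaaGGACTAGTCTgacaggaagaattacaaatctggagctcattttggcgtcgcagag
The p53 half-site was absent from all 4 GDF9 windows. It was present in 1 of the 8 TGFBR1 windows, where it began 5 bases before the start and shared 4 bases with a GTCTG box. It was also present in 1 of 2 TGFB3 windows, as AGGCAAGCCC, beginning 52 bases before the start. Of the 24 windows of the 10 genes, 2 (8.33%) held it, against 6.63% of all 35116 windows. The SMAD box lay in 3 of the 4 GDF9 windows, in 4 of the 8 TGFBR1 windows and in 13 of the 24 windows of the 10 genes (54.2%), against 45.3% of all windows. Windows of a gene can overlap, so 1 box can be counted more than once. The boxes in the 3 GDF9 windows are the same 2 stretches of the chromosome, and some TGFBR1 windows share a box too. A match of letters does not show binding, and its absence from these windows says nothing of binding elsewhere.

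GDF9 stood far higher with p53, and the receptors split. GDF9 and the type I receptor gene TGFBR1 were at least 2-fold higher, TGFB2 and the type II receptor gene TGFBR2 were at least 2-fold lower, and the other 6 were neither. Over all 18417 genes, the share at least 2-fold higher with p53 was 5.22%, the share at least 2-fold lower was 3.7%, and both together made 8.92%. The choice of the 10 rested on this same contrast, so nothing is read from 4 of 10 being called. The median difference of the 10 was -0.06, against 0.00 over all genes. Nearest to the 2-fold line were TGFB2, past it at -1.12 and called, and TGFBR3, short of it at 0.71 and not called.

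**Figure D1:**
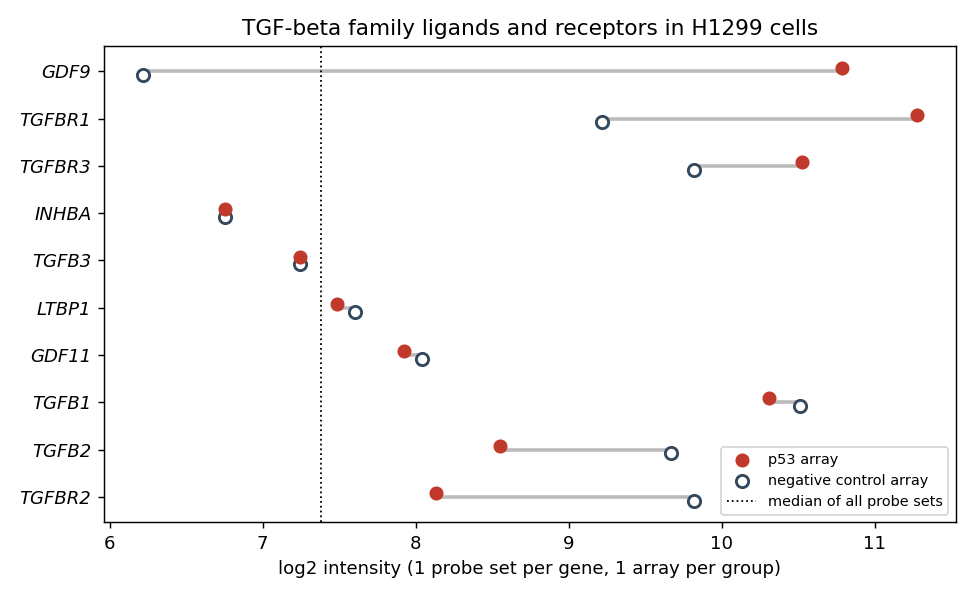
Log2 intensity of the 10 genes on the x axis, with filled points for the p53 array and open points for the negative control array, and a dotted line at the median of all probe sets (7.38). GDF9 lies at 10.79 with p53 and at 6.22 in the control, TGFBR2 and TGFB2 have their p53 points to the left of their control points, and the 2 points of TGFB3 and of INHBA coincide (drawn slightly apart).

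Among the ligands, GDF9 had a log2 intensity of 10.79 in the p53 array, against 6.22 in the control array. On the linear scale these are intensities of 1768 with p53 against 74.3 in the control, 23.8-fold apart. The control value lay 1.17 below the median of all probe sets, 7.38, so the fold rests on a dim control signal, and detection calls were not used here. Counting GDF9 itself, 7 of the 18417 genes had a difference at least this high, a rank that follows from the choice of GDF9 and supports nothing. With 32 added to both linear intensities before the logarithm, the difference was 4.08 in place of 4.57.

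Of the TGF-beta genes themselves, 1 was called. TGFB2, one of the 3 TGF-beta isoforms, had 8.55 with p53 and 9.67 in the control, 2.18-fold lower with p53. As many as 507 genes (2.75%) had a difference as low as that of TGFB2 or lower. TGFB1, the most widely expressed isoform, had 10.31 with p53 and 10.51 in the control, a difference of -0.20. TGFB3 was listed at 7.24 in both arrays. These 3 isoforms thus comprised 1 gene past the 2-fold line and 2 within it.

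INHBA encodes the subunit of activin A, a ligand that signals through activin receptors and SMAD2 and SMAD3. It was listed at 6.76 in both arrays. GDF11, a relative of myostatin, had 7.92 with p53 and 8.04 in the control. LTBP1, which tethers the latent TGF-beta precursor to the matrix, had 7.49 with p53 and 7.60 in the control. Both of the last 2 stood at -0.12, within the 2-fold line. INHBA and TGFB3, the 2 members with equal values, lay below the median of all probe sets. Exactly equal values were common there: 69.2% of the genes below that median in both arrays were equal, against 14.6% of the other genes. An equal value on these arrays therefore does not show that the transcript was unchanged.

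The receptors went opposite ways. TGFBR1, the type I receptor of TGF-beta, had 11.27 with p53 and 9.21 in the control, which is 4.17-fold higher with p53. TGFBR2, its type II partner, had 8.13 with p53 and 9.82 in the control, which is 3.23-fold lower with p53. TGFBR1 was among the 240 genes (1.3%) with a difference at least as high as its own, and TGFBR2 among the 140 genes (0.76%) at least as low. The differences of the 2 partners lay 3.75 apart on the log2 scale. TGFBR3, or betaglycan, the co-receptor that presents TGF-beta2 to the kinases, had 10.52 with p53 and 9.82 in the control, 1.63-fold higher and so not called.

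**Figure D2:**
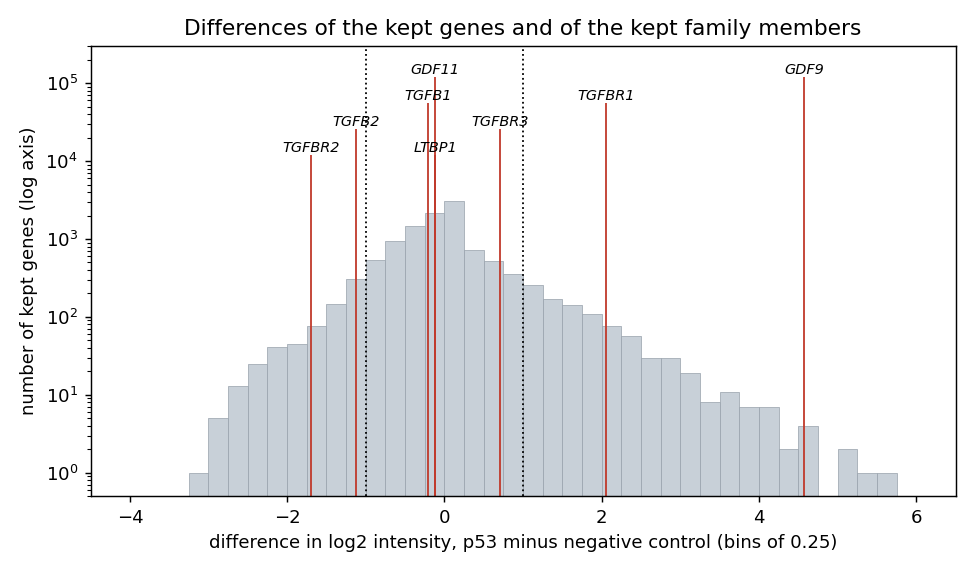
Number of genes (log axis) by difference in log2 intensity, p53 minus negative control, in bins of 0.25, for the 11436 genes that reached the median of all probe sets in at least 1 array; red lines mark the 8 members among them and dotted lines the 2-fold limits. GDF9 lies at 4.57 in the sparse right tail, TGFBR1 at 2.06, and TGFBR2 at -1.69 and TGFB2 at -1.12 on the left.

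Of the 10 genes, 8 reached the median of all probe sets in at least 1 array. GDF9 reached it with p53 alone, so its passing the filter depended on its difference. Over the 11436 genes that passed, the 2-fold shares were 8.21% higher and 5.79% lower. At 3-fold, GDF9 and TGFBR1 were still called higher and TGFBR2 lower, against shares of 3.93% and 1.53%. At 1.5-fold TGFBR3 joined the higher genes, against shares of 14.4% higher and 15.5% lower.

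The genes next to the called members on the chromosome were compared with them, by gene order in the RefSeq table. UQCRQ, which encodes a subunit of respiratory complex III, is the neighbour of GDF9 on the opposite strand, and its start lies 9 to 312 bases from the 4 GDF9 starts in RefSeq (GRCh38.p14). UQCRQ was listed at 10.09 in both arrays, while GDF9 differed by 4.57. As said above, an equal value does not show that the transcript was unchanged. SHROOM1, on the other side, had 8.37 with p53 and 8.48 in the control. The 3 nearest measured genes on each side of GDF9 had differences between -0.12 and 0.83. Of these 6, 0 were called, against 8.92% of all genes, so the count says little. LEAP2, like UQCRQ, was equal in both arrays.

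Around TGFBR1, the nearest measured genes were COL15A1, a collagen gene with 7.46 with p53 and 7.02 in the control, and ALG2, a mannosyltransferase gene with 9.51 with p53 and 9.54 in the control. Around TGFBR2 they were RBMS3, with a difference of 0.20, and GADL1, with 0.38, both opposite in sign to TGFBR2. Around TGFB2 they were RRP15, a ribosome biogenesis gene with a difference of -0.61, and LYPLAL1, with -0.24. None of these 6 was called. Of the 20 nearest measured neighbours of the 10 members, 2 were called higher and 1 lower, against 5.22% and 3.7% of all genes.

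**Figure D3:**
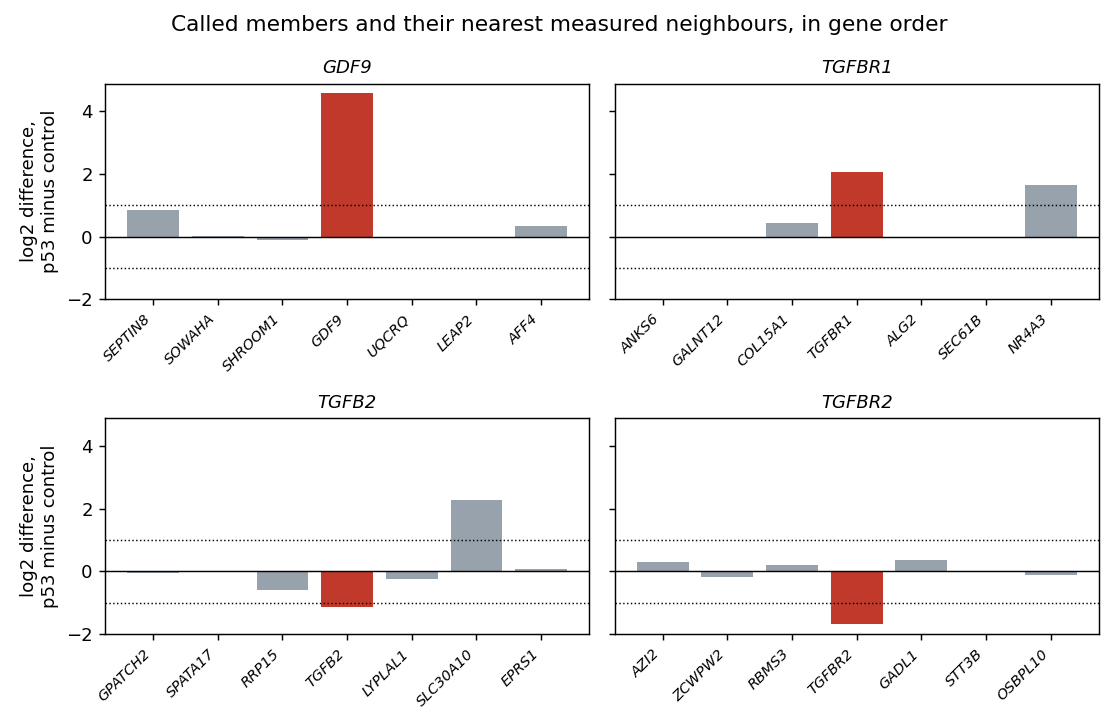
Difference in log2 intensity, p53 minus negative control, for each of the 4 called members (red bars) and the 3 nearest measured protein-coding genes on each side (grey bars), in gene order, with dotted lines at the 2-fold limits. GDF9 stands at 4.57, beside UQCRQ and LEAP2, which were listed with equal values in both arrays (0.00). SLC30A10 (2.28), near TGFB2, and NR4A3 (1.64), near TGFBR1, are the 2 called neighbours shown.

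The genes whose pair of intensities lay closest to that of GDF9 were F2RL2, CEACAM1, PDE3A, CRISPLD2 and DISP1, in that order. Closeness was the straight-line distance between pairs of log2 values, over 2 arrays only, and ran from 0.51 to 0.93. F2RL2, a thrombin receptor gene, had 10.38 with p53 and 5.91 in the control. CEACAM1, a cell adhesion gene, had 10.61 with p53 and 6.75 in the control. Intensities of different probe sets are not amounts of RNA, so the likeness is one of pattern on these arrays.

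Because GDF9 is known from the ovary, oocyte and granulosa cell genes were read beside it. Of 15 measured oocyte markers, 0 were called in either direction, against 8.92% of all genes, and their differences ran from -0.12 to 0.21. Of the 15, 12 stayed below the median of all probe sets and 10 were equal in both arrays. At such dim levels a count of 0 says little about their transcripts. The summed linear intensity of the 15 was 1731 with p53 and 1740 in the control. BMP15, the close relative with which GDF9 can pair, was listed at 5.61 in both arrays. The oocyte transcription factor genes FIGLA and NOBOX were listed at 5.96 and 6.82, equal in both arrays, as were the zona pellucida genes ZP1, ZP2 and ZP4. The 3 oocyte markers that reached the median of all probe sets were ZP3, GPR3 and H1-8. ZP3 had 8.55 with p53 and 8.57 in the control, and GPR3 had 8.08 with p53 and 8.21 in the control. H1-8 was listed at 7.97 in both arrays. Of 7 granulosa cell markers, 0 were called, against 8.92% of all genes, so that count too says little. Of the 7, 4 stayed below the median of all probe sets and 6 were equal in both arrays. AMH, at 8.62, and INHBB, at 7.84, were above that median and equal in both arrays. FOXL2, at 0.08, was the 1 granulosa cell marker with unequal values. These gene names were given as examples after their values were seen.

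The other ligands of the family were mostly dim and level. Of 26 measured, 15 stayed below the median of all probe sets and 15 were equal in both arrays. Calls were made for 3 of them, 2 higher with p53 and 1 lower, near the share of 8.92% called over all genes, and the median of the 26 differences was 0.00. GDF15, a stress cytokine and known p53 target, had 11.20 with p53 and 7.79 in the control, 10.6-fold higher. BMP8A had 8.76 with p53 and 7.35 in the control, 2.64-fold higher. BMP6, a bone morphogenetic protein gene, had 7.22 with p53 and 8.32 in the control, 2.13-fold lower. BMP8A and BMP6 reached the median of all probe sets in 1 array each. BMP8A has a close paralogue, BMP8B, so that their probe sets may share signal; BMP8B stood at 0.04 by its brighter and at 0.41 by its dimmer probe set.

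**Figure D4:**
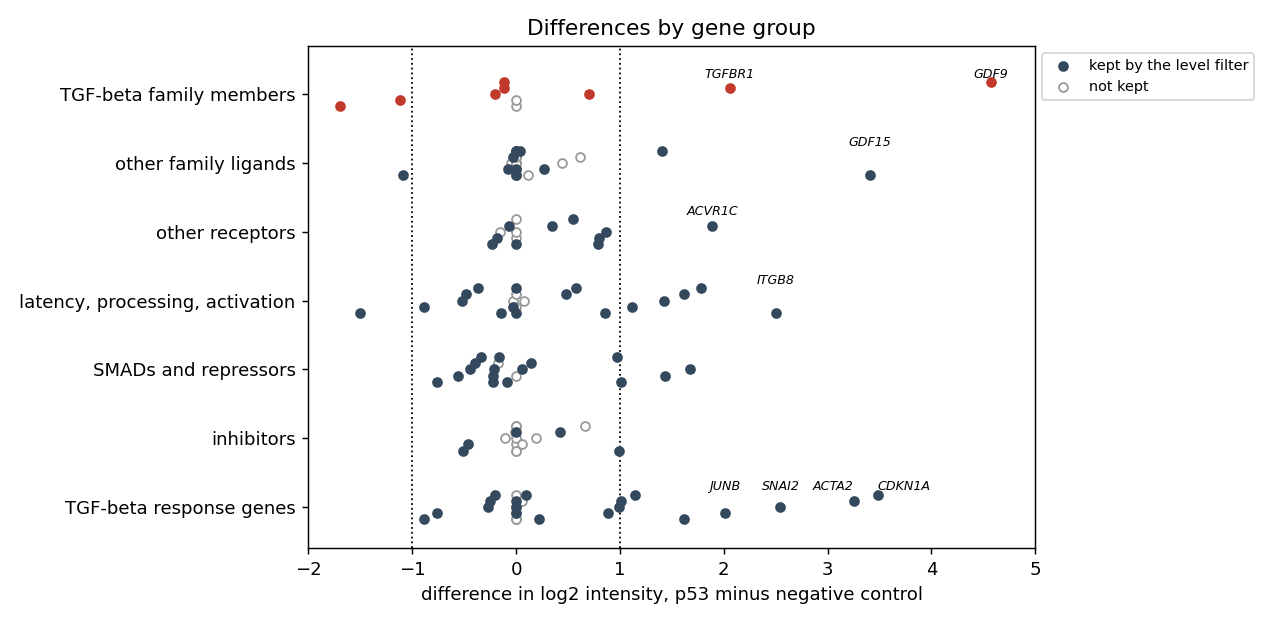
Difference in log2 intensity, p53 minus negative control, of every measured gene in each group (points staggered within a row), with filled points for genes that reached the median of all probe sets in at least 1 array, open points for the rest, and dotted lines at the 2-fold limits. The family members are in red, and calls lie mainly to the right of the upper limit, led by GDF9 (4.57), CDKN1A (3.49) and GDF15 (3.41).

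Among the further receptors, ACVR1C was the 1 gene past 2-fold. ACVR1C, or ALK7, a type I receptor of activin and nodal, had 9.37 with p53 and 7.48 in the control, 3.70-fold higher. BMPR2, the type II receptor that binds GDF9, had 11.40 with p53 and 10.53 in the control, 1.82-fold higher and not called. The activin receptor genes ACVR1, at 0.80, and ACVR2A, at 0.79, followed, both named after their values were seen. The group held 14 measured receptors and co-receptors, of which 1 was called higher, 0 were called lower and 4 were equal in both arrays; its median difference was 0.00. This too is near the 8.92% called over all genes. Set by role, a grouping made after the values were seen, TGFBR1, which GDF9 and TGF-beta both use, had a difference of 2.06. BMPR2, the type II receptor of GDF9, had 0.86, and TGFBR2, the type II receptor of TGF-beta, had -1.69. Whether the response to either ligand differed was not tested.

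Genes of ligand storage and activation moved both ways. The 21 measured genes had a median difference of 0.00, and 5 of them were called higher and 1 lower, against 5.22% and 3.7% of all genes. ITGB8 encodes the integrin chain that, with the alpha-V chain, activates latent TGF-beta. It had 8.82 with p53 and 6.32 in the control, 5.67-fold higher. BMP1, a protease of procollagens and latent complexes, was 3.43-fold higher at 9.48 with p53 and 7.70 in the control. Its other, dimmer probe set differed by 0.30 only, so the BMP1 value depends on the probe set. LTBP2, which unlike LTBP1 does not bind latent TGF-beta, was 3.08-fold higher at 10.71 with p53 and 9.09 in the control. The remaining 2 higher genes, named after their values were seen, were the proprotein convertase gene PCSK5 (1.42) and the fibrillin gene FBN2 (1.12). ITGB3, another partner of the alpha-V chain, had 7.15 with p53 and 8.65 in the control, 2.83-fold lower. ITGB8 and PCSK5 passed the filter through the p53 array alone and ITGB3 through the control array alone.

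In the SMAD group 3 genes were called, all higher with p53. The 18 measured genes had a median difference of -0.17, with 3 called higher and 0 called lower, against 5.22% and 3.7% of all genes. SMAD5, a transducer of BMP receptors, had 11.84 with p53 and 10.16 in the control, 3.20-fold higher. PPM1A, a phosphatase reported to act on SMADs, was 2.70-fold higher, at 9.55 with p53 and 8.12 in the control. SMAD7, the inhibitory SMAD that TGF-beta induces, stood at the line, at 8.47 with p53 and 7.46 in the control, 2.01-fold higher. With the offset of 32 its difference was 0.89, below 2-fold. The SMAD repressor genes SKI, at 0.98, and SKIL, at -0.76, and the BMP transducer SMAD1, at -0.56, came nearest to the line among the rest, all 3 named after their values were seen. The transducers of TGF-beta and GDF9, named after their values were seen, were within 2-fold: SMAD2 stood at -0.44, or at -0.80 by its dimmer probe set, SMAD3 at -0.34 and their partner SMAD4 at -0.16.

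Of 16 measured inhibitors, 0 were called in either direction, against 8.92% of all genes, with a median of 0.00. Of the 16, 11 stayed below the median of all probe sets and 7 were equal in both arrays, so the count of 0 says little about the group. PMEPA1, a membrane protein gene induced by TGF-beta that restrains it, lay just short of the line, at 9.88 with p53 and 8.89 in the control. It stood at 1.05 with a lowess trend on intensity removed and at 1.02 after quantile normalization, both past 2-fold. BMPER, a BMP-binding protein gene, had 7.36 with p53 and 7.86 in the control.

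Genes known to respond to TGF-beta were uneven. The 25 measured genes had a median difference of 0.00, with 7 called higher, 0 called lower and 7 equal in both arrays. Over all genes the shares were 5.22% higher, 3.7% lower and 35.3% equal. CDKN1A, the gene of the cell cycle inhibitor p21, had 12.66 with p53 and 9.18 in the control. ACTA2, which encodes smooth muscle actin, had 11.68 with p53 and 8.43 in the control. SNAI2, a repressor of epithelial genes, had 10.01 with p53 and 7.46 in the control, and JUNB, an AP-1 subunit gene, had 11.27 with p53 and 9.26 in the control. The remaining higher genes, named here after their values were seen, were LTBP2 (1.62), BHLHE40 (1.15) and SMAD7 (1.01). LTBP2 was also counted in the storage and activation group and SMAD7 in the SMAD group, so the counts of the groups are not separate. CDKN1A and SNAI2 are also textbook p53 targets, and several differences on this list were known when it was drawn up, so its count is no independent evidence of TGF-beta signalling. CCN2, a matricellular gene widely used as a TGF-beta readout and named after its value was seen, had 11.47 with p53 and 11.46 in the control. TGFBI and FN1, named likewise, stood at -0.20 and 0.22. Further from 0 but within 2-fold, and also named after their values were seen, were THBS1 at -0.88, SKIL at -0.76, PMEPA1 at 0.99 and TAGLN at 0.88.

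As a check of the cells, the epithelial keratin genes KRT8 and KRT18 were bright, KRT8 at 12.84 with p53 and 12.52 in the control, and KRT18 at 12.47 with p53 and 12.78 in the control. EPCAM, CDH1 and NKX2-1 were below the median of all probe sets and equal in both arrays by their brighter probe set, while the other EPCAM probe set stood at -0.30. SCGB1A1, an airway secretoglobin gene, was the 1 of 8 epithelial markers called, near the share of 8.92% called over all genes. It had 8.53 with p53 and 7.09 in the control, and so reached the median of all probe sets in the p53 array alone. Of 5 measured blood markers, 0 were called, against 8.92% of all genes, and 3, PTPRC among them, were equal in both arrays. CD68 had 11.01 with p53 and 11.40 in the control, and ITGAM had 8.46 with p53 and 7.68 in the control. The labels name H1299 cells alone in both groups, and which cells gave the CD68 and ITGAM signal was not tested. Of 10 fibroblast and endothelial markers, 10 were equal in both arrays and 9 stayed below the median of all probe sets. A change in the number of cells that express a gene and a change in its RNA per cell cannot be told apart in RNA pooled from a culture.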

How the data were processed

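Each group, H1299 cells with p53 and H1299 cells of a negative control, had 1 array, with total RNA as the starting material and biotin as the label. The authors deposited log2 intensities for each probe set, normalized and summarised by RMA (robust multi-array average) per the submitters' processing notes. Software version, probe set definition and build were not given in the sources used here, and the log2 scale was read from the values. With RMA the 2 columns had nearly equal medians (7.38 each), which removes any shift in total RNA. The number of arrays, 1 a group, limits the precision, and no p-value was computed. Of 33297 probe sets, 19460 had 1 gene symbol in GEO's platform annotation, 1754 several and 12083 none; symbols were updated through RefSeq, and the brightest probe set stood for a gene. The level filter was the median of all probe sets (7.38) in the higher array. Alternatives were other filters (none, the 75th percentile, the mean of the 2 arrays), 1.5-fold and 3-fold limits, centring, lowess (span 0.3), quantile normalization, other uses of several probe sets, an offset of 32 and a floor at the 25th percentile. Named by rule were all members, the 5 genes nearest to GDF9, neighbours of called members, and per list up to 4 called genes among those passing the filter (the 2 largest differences where fewer than 2 were called). Other list genes and cell type markers were named outside this rule, with their values known. Members and lists were chosen with earlier results of these data known. The planned comparison of the ligand proteins was not run. The calling step was run on simulated differences planted far past the 2-fold line, with little noise. That run checks the code only and gives no error rate for these arrays. The software was Python 3.11.15 with pandas 2.3.3, numpy 2.4.6, statsmodels 0.14.6 and matplotlib 3.10.9.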

Additional observations from a re-analysis of the deposited data

How the results depend on the processing

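The called members GDF9, TGFBR1, TGFB2 and TGFBR2 stayed past 2-fold in the same direction under centring, lowess, quantile normalization, the mean over probe sets, the offset and the floor. The difference of GDF9 was 4.08 with the offset of 32, against 4.57, since the offset weighs most on its dim control value. At 3-fold, 1 member in place of 2 was lower. The limit for a moved value was a shift over 0.145, the spread between 2 probe sets of a gene, or a crossing of the 2-fold line, and for a count it was a change over 1.5 times. Counts in either direction moved as follows. With the filter at the 75th percentile they were 1 (in place of 3) for other ligands and 3 (in place of 6) for storage and activation. At 3-fold they were 1 for other ligands, 3 for storage and activation and 1 (in place of 3) for the SMAD group. At 1.5-fold they were 4 (in place of 1) for other receptors, 5 for the SMAD group, 1 (in place of 0) for inhibitors and 11 (in place of 7) for response genes. The count of inhibitors was also 1 after lowess and after quantile normalization. Medians over the members passing the 75th percentile were 3.41 for other ligands (1 gene, GDF15), 0.83 for other receptors (4 genes), 0.22 for storage and activation (10), 0.50 for inhibitors (2, PMEPA1 and TWSG1) and 1.15 for response genes (11). Over members passing by the mean of the 2 arrays they were 0.45 for other receptors, 0.21 for inhibitors and 0.22 for response genes. The filters leave fewer genes, and those passing by the higher array favour genes that differ. Of the 138 settings run for other named genes, 16 moved and 0 reversed, with BMP6 at -0.95 under the offset, less than 2-fold, and BMP1 at 1.04 as the mean of its probe sets. With 1 array a group, no replicate could be left out. No paired analysis was possible because each group has 1 sample and no test was made.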
